A study of Mus musculus with 16 samples.

Results

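The comparison asked whether 2i changed gene expression differently in 3B3-3l than in TKO mouse embryonic stem cells (mESCs). For each gene it was the change from serum to 2i in 3B3-3l minus the change from serum to 2i in TKO, called here the difference of responses. Its members were chosen by line and medium from the sample labels, which gave 9 of the 16 arrays of the series: 2 of TKO in serum, 3 of TKO in 2i, 2 of 3B3-3l in serum and 2 of 3B3-3l in 2i. The other 7 arrays, of wild-type J1 cells, entered the same linear model and helped to set its estimate of the spread, but not the difference itself. In serum the J1 cells were grown on inactivated feeder cells, unlike both mutant lines.

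Both lines were derived from J1, a male mESC line of the 129S4/SvJae strain, and were grown without feeder cells on gelatin. TKO cells lack all 3 active DNA methyltransferases, Dnmt1, Dnmt3a and Dnmt3b. 3B3-3l cells (3B3l in the study) lack the endogenous Dnmt3a and Dnmt3b and express exogenous Dnmt3b and Dnmt3l constitutively, with Dnmt1 intact. The serum medium held 15% fetal calf serum and 500 U/ml of the cytokine LIF. The 2i medium was the serum-free N2B27 with 1000 U/ml LIF, 1 µM PD0325901 (an inhibitor of the kinase MEK) and 3 µM CHIR99021 (an inhibitor of the kinase GSK3), and cells were kept in it for 2 weeks. Each mutant line is a single line, so what is particular to a genotype and what is particular to a clone cannot be told apart. Nothing in the labels says whether arrays of a group came from separate cultures, so p-values measure the spread between these samples, which may be technical.

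MEK inhibition removes the ERK signal that pushes mESCs towards differentiation, and GSK3 inhibition stabilises beta-catenin, so that 2i holds cells close to the state of the early epiblast. In wild-type cells 2i also lowers DNA methylation through the genome, by repression of the de novo enzymes and loss of maintenance. TKO cells have no methylation to lose, whereas 3B3-3l cells express an exogenous de novo enzyme, Dnmt3b, with its cofactor Dnmt3l. DNA methylation is best known for silencing germline genes, imprinted alleles, X-linked gene clusters and transposable elements.

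Levels are given as log2 signal after subtraction of the array's own 75th percentile, and a value is a level unless it is called a response or a difference. The lowest signal well above background on an array lay between -2.88 and -2.18 on this scale. The test took in probes with signal well above background throughout at least 1 of the 4 groups. For a probe that passed through 1 group alone, the direction of a call follows largely from this filter. A probe was called at a limma adjusted p of at most 0.05 and a difference of at least 2-fold, and a gene was called when at least 1 of its probes was. Where a group was not well above background, a fold is given as at least N-fold, set against the lowest signal that passed on each array. Calls that ended when the background was corrected by limma's normexp method, in place of the scanner's own correction, are given with that value. Levels are not compared between genes.

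The targeted genes were examined first. Dnmt1, the maintenance enzyme, lay at -1.702 and -1.65 in TKO-serum, -1.58, -1.42 and -1.64 in TKO-2i, 2.34 and 2.34 in 3B3-3l-serum and 2.21 and 1.91 in 3B3-3l-2i, so the lines did not overlap. Its difference of responses was -0.41 ± 0.18 (SE) and was not called (limma adjusted p 0.17). The single Dnmt3a probe was not well above background on any of the 9 arrays and was not tested. One Dnmt3b probe read -0.25 and -0.44 in TKO-serum, -0.69, -0.53 and -0.70 in TKO-2i, 5.62 and 5.44 in 3B3-3l-serum and 5.64 and 6.01 in 3B3-3l-2i, which is a high and stable level in the line with exogenous Dnmt3b. Its difference of 0.59 ± 0.19 (SE) was not called (limma adjusted p 0.052). Another Dnmt3b probe gave 0.39 and 0.30, 0.35, 0.31 and 0.19, 0.71 and 0.86 and -0.89 and -0.55 in the same order of groups, and its difference of -1.44 ± 0.22 (SE) was called lower (limma adjusted p 0.00075). The remaining Dnmt3b probe was also called lower, at -1.53 ± 0.31 (SE), with 3B3-3l-2i not well above background, and was not called with normexp (-0.94). The 3 probes of this gene thus did not give a single result. Dnmt3l, the cofactor of the de novo enzymes, went from 5.51 and 5.57 to 2.75, 3.01 and 3.06 in TKO and from 5.89 and 5.80 to 4.29 and 4.48 in 3B3-3l. Its fall was smaller in 3B3-3l by 1.14 on the log2 scale (limma adjusted p 0.0043; 0.999 and not called with normexp), but both serum groups were saturated, so both falls are minimum values and their difference has no bound.

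All 3B3-3l arrays lay on 1 slide, both TKO-serum arrays and 2 TKO-2i arrays on another, and TKO-2i replicate 1 on 1 more. A shift common to a slide therefore cancels within 3B3-3l, while it could enter the TKO response through 1 array. In any comparison of the lines within 1 medium, line and slide cannot be told apart. Calls that ended when a single array was left out are marked below as resting on single arrays, and their values without those arrays are given with the effects of the processing. The defining markers Pou5f1, Sox2, Nanog, Zfp42 and Esrrb were well above background on all 9 arrays. The 75th percentile of signal lay between 1019 and 1395 intensity units, and 39.7% to 49.0% of the spots on an array were well above background. The lowest correlation between arrays of a group was 0.975.

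Of 13452 genes tested, 744 (5.53%) had a higher 2i response in 3B3-3l than in TKO and 756 (5.62%) a lower one. Together these were 1499 genes (11.1%), because 1 gene had probes in both directions. The median difference over genes was -0.06. In serum 12.5% of the genes differed between the lines and in 2i 11.8%. The calls were sorted by what each line did on its own, taking for each gene the called probe with the largest difference. These counts describe how a difference arose and carry no test of their own.

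Among the genes with a higher response in 3B3-3l, the most common pattern was a called fall in TKO with no called change in 3B3-3l (310 genes). Another 134 rose in 3B3-3l with no called change in TKO, 85 fell in both lines but less in 3B3-3l, 26 rose in both but more in 3B3-3l, and 139 were called in neither line. In 49 genes TKO fell and 3B3-3l rose. Among the genes with a lower response, 224 fell in 3B3-3l with no called change in TKO and 206 rose in TKO with no called change in 3B3-3l. Another 104 fell in both but further in 3B3-3l, 41 rose in both but less, 160 were called in neither line, and in 21 TKO rose while 3B3-3l fell. The last count includes genes for which both groups of a line were not well above background on any array (Mal and Isg20 in 3B3-3l, Tgfb2 in TKO), so that the direction in that line was not measured.

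The medium in which the lines stood apart also varied. Of the genes with a higher response, 271 differed between the lines in serum and not in 2i, 204 in 2i and not in serum, 60 in both media with opposite sign and 36 in both with the same sign. The remaining 172 were called in neither. For the genes with a lower response these counts were 270, 235, 30, 33 and 188 in the same order. In both directions a difference in serum alone was more frequent than one in 2i alone. Only 264 of the 743 strongest higher probes and 386 of the 756 lower ones were well above background and unsaturated on all 9 arrays. Where a group lay in the background its change is a lower limit, and no further fall could be seen from there.

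**Figure D1:**
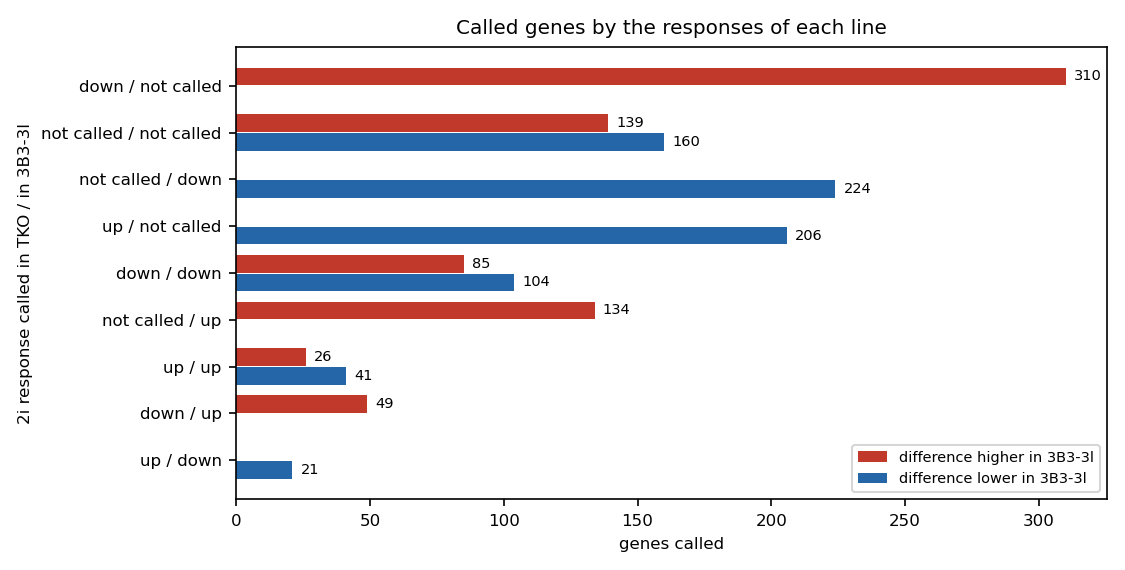
Number of called genes (horizontal axis) by the call of the 2i response in TKO and in 3B3-3l (vertical axis, TKO first). Red bars are genes with a higher and blue bars genes with a lower response in 3B3-3l; the longest red bar holds 310 genes that fell in TKO alone and the longest blue bar 224 genes that fell in 3B3-3l alone.

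The largest differences of all were in genes of the two-cell-like state, a rare and transient condition of mESC cultures in which genes of the 2-cell embryo are switched on. Of 15 such genes tested, 11 had a higher response in 3B3-3l, against 5.53% of all genes, and 1, Pramel7, a lower one. The list's median difference was 4.33, from a median response of -3.03 in TKO and 1.61 in 3B3-3l. In TKO 11 of the 15 fell and 1 rose (10.1% and 7.51% of all genes), while in 3B3-3l 11 rose and none fell (6.24% and 8.65% of all genes).

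Zscan4 genes encode zinc finger proteins that act at telomeres during this state. Zscan4f lay at 3.47 and 3.44 in TKO-serum, -3.89, -4.18 and -4.34 in TKO-2i, 1.45 and 1.71 in 3B3-3l-serum and 3.798 and 4.15 in 3B3-3l-2i. It was thus abundant in TKO-serum, not well above background on all 3 TKO-2i arrays, and higher in 2i than in serum in 3B3-3l, with no overlap between any of the groups within a line. TKO fell at least 63.8-fold and 3B3-3l rose 5.26-fold. The measured difference was 9.99 ± 0.23 (SE) (limma adjusted p 4e-11), and the bound on the ratio of the responses was at least 336-fold.

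Zscan4b went from 2.90 and 2.94 to -4.59, -4.73 and -4.85 in TKO and from 1.11 and 0.84 to 3.64 and 3.47 in 3B3-3l. Its measured difference was 10.23 ± 0.18 (SE) (limma adjusted p 6.1e-12, ratio of responses at least 263-fold, with TKO-2i in the background). Zscan4c was measured by 3 probes, which gave 8.997, 8.83 and 4.90, and Zscan4a by 2 probes, at 8.50 and 4.33. For each gene the smallest value came from the probe that stayed well above background in TKO-2i. All 4 Zscan4 genes tested were called higher. Their sequences are close copies of each other, so signal at one probe can come from another member and the genes are not separate measurements.

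The 300-base promoter windows of Zscan4c and Zscan4f (RefSeq, build GRCm38.p6, 250 bases before to 50 after the start) are shown as examples of the Zscan4 genes, which include the largest differences. The window of Zscan4c is chr7:11005495-11005794 and that of Zscan4f chr7:11397665-11397964, both on the plus strand. CpG sites, the targets of the DNA methyltransferases, are in capitals.
Zscan4c: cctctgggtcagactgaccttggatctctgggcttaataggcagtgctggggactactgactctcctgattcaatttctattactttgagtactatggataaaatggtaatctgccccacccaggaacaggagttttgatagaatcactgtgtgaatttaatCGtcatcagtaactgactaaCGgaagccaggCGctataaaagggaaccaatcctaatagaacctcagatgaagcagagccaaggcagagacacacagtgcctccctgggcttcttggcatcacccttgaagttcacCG
Zscan4f: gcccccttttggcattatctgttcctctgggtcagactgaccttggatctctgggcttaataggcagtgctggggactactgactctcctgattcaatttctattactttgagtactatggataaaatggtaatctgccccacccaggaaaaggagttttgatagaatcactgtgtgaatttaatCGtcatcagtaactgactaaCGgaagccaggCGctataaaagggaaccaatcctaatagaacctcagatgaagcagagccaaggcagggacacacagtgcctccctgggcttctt
An alignment of the windows was identical at 275 of 323 columns (85.1%). These columns include the overhanging ends, because the windows begin at different points of nearly the same sequence. The windows held 4 and 3 CpG sites, and the extra site of Zscan4c lies in its overhanging end. Of 32851 promoter windows in the RefSeq table, 31.4% held 3 CpG sites or fewer. No comparison of CpG content over the called genes is given, since under 80% of them had a window in the table (563 of 743 higher and 567 of 756 lower genes), which makes that check void.

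Genes of unassigned function that are known from the same state behaved alike. Gm4340 was well above background on all 9 arrays, at 3.94 and 3.96 in TKO-serum, -1.01, -0.70 and -0.83 in TKO-2i, 2.16 and 2.38 in 3B3-3l-serum and 3.92 and 3.83 in 3B3-3l-2i. TKO fell 27.8-fold and 3B3-3l rose 3.05-fold, a difference of 6.41 ± 0.18 (SE) (limma adjusted p 1.5e-10). Gm2022 fell in TKO from 2.03 and 2.32 to -1.299, -1.29 and -1.51 and rose in 3B3-3l from 2.20 and 1.69 to 4.05 and 4.19. The lines overlapped in serum and lay 45-fold apart in 2i. Its difference was 5.72 ± 0.25 (SE) (limma adjusted p 9.6e-09).

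By size alone, the 10 largest differences among genes measured on all 9 arrays were those of AF067061 (6.89), Gm4312 (6.80), Gm4340, Stra8, Gm2022, Zscan4c, Pramel20 (4.65), Zscan4a, Gm4303 (4.01) and Ndufa4l2. Among genes with a group in the background, Gm13043 (8.97, at least 94.4-fold) and Gm20767 (8.83, at least 94-fold) followed 3 of the Zscan4 genes. AF067061 lay at 3.29 and 3.40 in TKO-serum, -1.94, -2.29 and -2.08 in TKO-2i, 0.70 and 0.66 in 3B3-3l-serum and 2.17 and 2.08 in 3B3-3l-2i. For each of the 10 but Gm2022, whose serum groups overlapped, both TKO-serum arrays were above both 3B3-3l-serum arrays. For all 10, each TKO-2i array was below each 3B3-3l-2i array. Wild-type J1 cells, given for reference, averaged 4.04 in serum and 1.93 in 2i for Zscan4f and 4.07 and 2.41 for Gm4340, and both genes were well above background on all arrays of these groups.

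Zfp352, another early embryonic gene of the list, was not called at -0.01, with an SE above 1 log2 unit. Usp17la was called higher by 1 of its probes and not by the brightest one, whose value was -0.75. In these bulk samples, fewer cells in the two-cell-like state and less RNA in each such cell cannot be told apart.

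**Figure D2:**
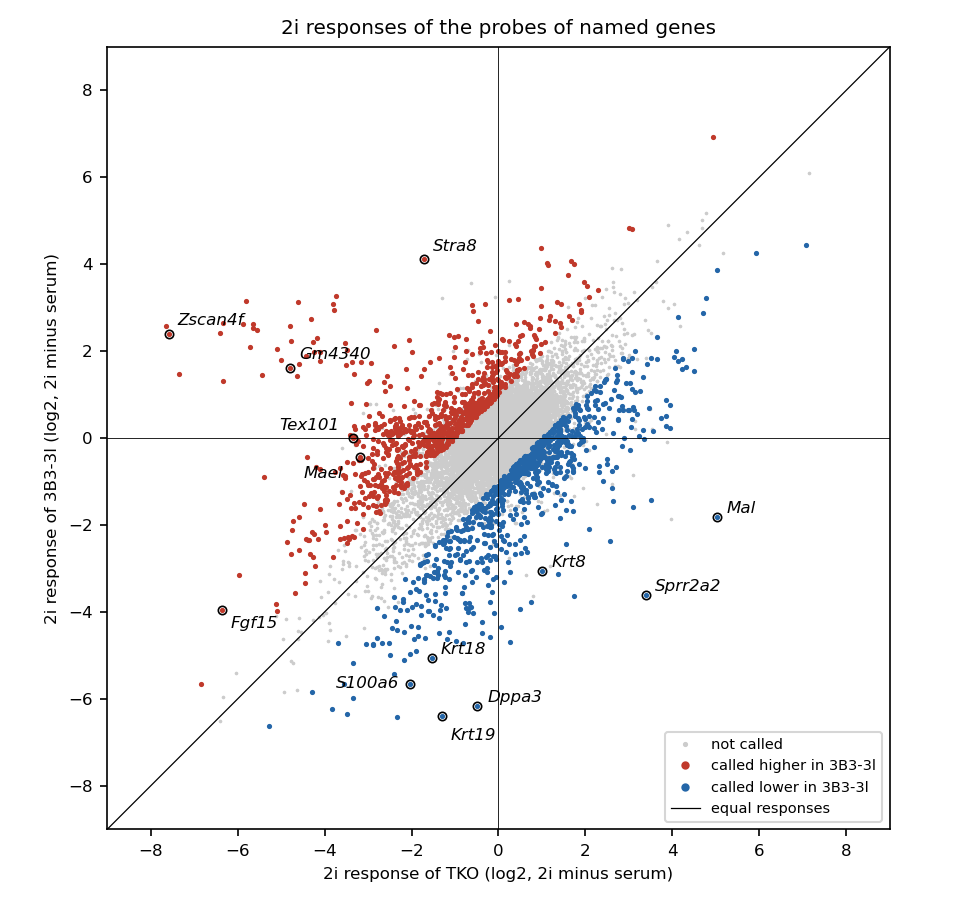
2i response of TKO (horizontal axis) against that of 3B3-3l (vertical axis), both as log2 change from serum to 2i, for each tested probe of a named gene. Red and blue points were called, grey points were not, and the line marks equal responses; Zscan4f and Gm4340 lie far to the upper left, where TKO fell and 3B3-3l rose, and Mal and Sprr2a2 to the lower right.

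Germline genes, which are normally silenced by promoter methylation outside germ cells, also held higher responses. Of 30 tested, 17 had a higher response in 3B3-3l and none a lower one, beside 5.53% and 5.62% of all genes, and the median difference was 1.23. In TKO 14 of the 30 fell and 2 rose in 2i (10.1% and 7.51% of all genes), and in 3B3-3l 2 fell and 7 rose (8.65% and 6.24% of all genes).

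Stra8, a gene induced by retinoic acid at the entry into meiosis, lay at 1.303 and 1.79 in TKO-serum, 0.07, -0.13 and -0.42 in TKO-2i, -0.45 and -0.61 in 3B3-3l-serum and 3.35 and 3.82 in 3B3-3l-2i. It fell 3.26-fold in TKO and rose 17.3-fold in 3B3-3l. The 3B3-3l-2i arrays were the highest of all and did not overlap any other group. The difference was 5.82 ± 0.29 (SE) (limma adjusted p 3.5e-08).

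Mael, a component of the piRNA pathway that silences transposons, lay at 2.45 and 2.59 in TKO-serum, -0.50, -0.59 and -0.95 in TKO-2i, 2.001 and 2.40 in 3B3-3l-serum and 1.84 and 1.71 in 3B3-3l-2i. The lines started from similar levels in serum, TKO fell 9.16-fold and 3B3-3l, whose response was -0.43, was not called, a difference of 2.77 ± 0.24 (SE) (limma adjusted p 5.9e-06). Fkbp6, also of the piRNA pathway, went from 2.24 and 2.80 to 3.22, 3.29 and 3.52 in TKO, which was not called, and rose from -1.12 and -0.95 to 1.46 and 1.20 in 3B3-3l. It was higher in TKO than in 3B3-3l in both media, and the larger rise in 3B3-3l (1.54 ± 0.23 (SE), limma adjusted p 0.00066) narrowed the gap.

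Dazl, an RNA-binding protein required for germ cells, was a similar case that missed the call. It rose from 3.00 and 2.49 to 3.87, 3.82 and 3.99 in TKO and from -0.42 and -0.20 to 1.55 and 1.83 in 3B3-3l. The difference was 0.85 ± 0.33 (SE), with a 95% interval from 0.14 to 1.56 (limma adjusted p 0.11).

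For other members the 3B3-3l cells gave no room for a fall. Asz1, a further piRNA gene, fell in TKO from 0.30 and 0.69 to -2.12, -2.05 and -1.85, but was not well above background on any 3B3-3l array (-4.31 and -4.48 in serum, -4.21 and -4.44 in 2i). Its difference of 2.57 ± 0.36 (SE) (limma adjusted p 0.00035) therefore sets the TKO fall beside an unmeasured response in 3B3-3l. Tex101, a germ cell surface protein, fell in TKO from -0.44 and -0.27 to background and lay at -2.05 and -1.85 and -2.10 and -1.80 in 3B3-3l (difference 3.34 ± 0.39 (SE)), where neither medium was well above background on every array. Among the remaining called members, Dpep3, Sycp1, Mov10l1, Stk31, Tex12, Slc25a31, Ddx4, Tex11, Sycp3, Syce1, Hormad1 and Rpl10l, the differences by the brightest probe ran from 0.55 to 2.56. The 13 members not called lay between -0.42 and 1.23.

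The promoter windows of Stra8 (chr6:34920698-34920997, plus strand) and Mael (chr1:166238695-166238994, minus strand) are shown beside those of Zscan4 because they contrast with them in CpG content, again with CpG in capitals.
Stra8: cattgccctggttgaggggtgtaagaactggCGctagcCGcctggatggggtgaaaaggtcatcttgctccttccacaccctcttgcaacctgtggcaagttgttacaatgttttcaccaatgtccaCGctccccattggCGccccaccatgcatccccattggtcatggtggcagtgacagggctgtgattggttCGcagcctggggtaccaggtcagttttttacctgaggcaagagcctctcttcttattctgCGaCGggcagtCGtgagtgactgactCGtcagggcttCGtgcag
Mael: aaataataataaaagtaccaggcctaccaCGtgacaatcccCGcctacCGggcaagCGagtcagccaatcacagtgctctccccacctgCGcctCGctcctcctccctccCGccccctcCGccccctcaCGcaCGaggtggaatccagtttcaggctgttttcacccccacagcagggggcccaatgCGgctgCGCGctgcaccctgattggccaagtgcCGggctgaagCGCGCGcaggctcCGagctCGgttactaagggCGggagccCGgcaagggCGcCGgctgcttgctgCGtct
They held 10 and 24 CpG sites, and 58.6% and 81.6% of all windows held that number or fewer. Those windows include genes that were not tested. The 28 of 30 germline genes with a window had a median of 20 CpG sites. Over the 10730 tested genes with a window the median was 19.5. Stra8 lay below both medians and Mael above both.

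In the other direction, the keratins of simple epithelia and their junction proteins held lower responses. Of 20 keratin and junction genes tested, 9 had a lower response in 3B3-3l, against 5.62% of all genes, and 1, Ocln, a higher one. The list's median difference was -0.78, with median responses of -0.75 in TKO and -2.43 in 3B3-3l.

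Keratins 8, 18 and 19 build the intermediate filaments of simple epithelia such as trophectoderm. Krt8 lay at 1.51 and 1.73 in TKO-serum, 2.52, 2.59 and 2.77 in TKO-2i, 5.21 and 5.35 in 3B3-3l-serum and 2.26 and 2.19 in 3B3-3l-2i. TKO rose 2.02-fold and 3B3-3l fell 8.33-fold, a difference of -4.07 ± 0.17 (SE) (limma adjusted p 6.1e-09). The 3B3-3l-serum arrays were far above all the others, 12.6-fold over TKO-serum, while in 2i they lay below the TKO arrays by less than the 2-fold limit. Krt18, its partner, was at 2.46 and 2.52 in TKO-serum, 1.21, 0.91 and 0.76 in TKO-2i, 5.51 and 5.72 in 3B3-3l-serum and 0.66 and 0.43 in 3B3-3l-2i. Both lines fell, TKO 2.89-fold and 3B3-3l 33.6-fold (difference -3.54 ± 0.29 (SE), limma adjusted p 4e-06).

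Krt19 fell from 0.04 and 0.26 to -1.24, -1.04 and -1.15 in TKO and from 3.52 and 3.69 to -2.96 and -2.63 in 3B3-3l, where the 2i arrays were no longer well above background. The 3B3-3l fall was at least 60.8-fold, and the ratio of the responses at least 24.8-fold (difference -5.11 ± 0.20 (SE), limma adjusted p 3.5e-09). Krt42, at -0.19 and 0.22 in TKO-serum and -0.28, -0.25 and 0.24 in TKO-2i, was not called in TKO, and fell from 2.33 and 2.43 to -1.67 and -1.63 in 3B3-3l (difference -3.91 ± 0.30 (SE)). Perp, a desmosome protein, fell from 4.25 and 4.02 to 0.32 and 0.14 in 3B3-3l and went from 2.07 and 2.18 to 1.47, 1.39 and 1.28 in TKO, which was not called (difference -3.16 ± 0.21 (SE)). In each of these keratin genes and in Perp the 3B3-3l-serum arrays held the highest values. Krt7, Dsp, Cldn7 and Cldn4 were also called lower. E-cadherin (Cdh1) and Epcam, which mESCs themselves express, differed by -0.55 and -0.78 and were not called.

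The promoter windows of Krt8 (chr15:102004293-102004592, minus strand) and Krt18 (chr15:102027966-102028265, plus strand), neighbours on chromosome 15, are shown because these genes lay on the opposite side from the germline genes.
Krt8: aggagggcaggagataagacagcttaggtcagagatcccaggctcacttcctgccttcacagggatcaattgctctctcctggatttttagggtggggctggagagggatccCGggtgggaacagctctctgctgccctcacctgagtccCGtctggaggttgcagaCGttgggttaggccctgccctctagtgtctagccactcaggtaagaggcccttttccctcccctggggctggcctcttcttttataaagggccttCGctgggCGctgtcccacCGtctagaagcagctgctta
Krt18: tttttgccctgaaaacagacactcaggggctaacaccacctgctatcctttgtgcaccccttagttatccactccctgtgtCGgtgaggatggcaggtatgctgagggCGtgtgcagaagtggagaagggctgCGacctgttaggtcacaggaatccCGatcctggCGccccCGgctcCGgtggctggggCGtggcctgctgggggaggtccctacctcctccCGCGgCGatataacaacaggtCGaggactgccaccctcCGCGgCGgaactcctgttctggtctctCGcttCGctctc
They held 6 and 17 CpG sites, numbers not exceeded in 47.9% and 70.3% of all windows. Both lay below the median of 19.5 over the tested genes with a window.

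**Figure D3:**
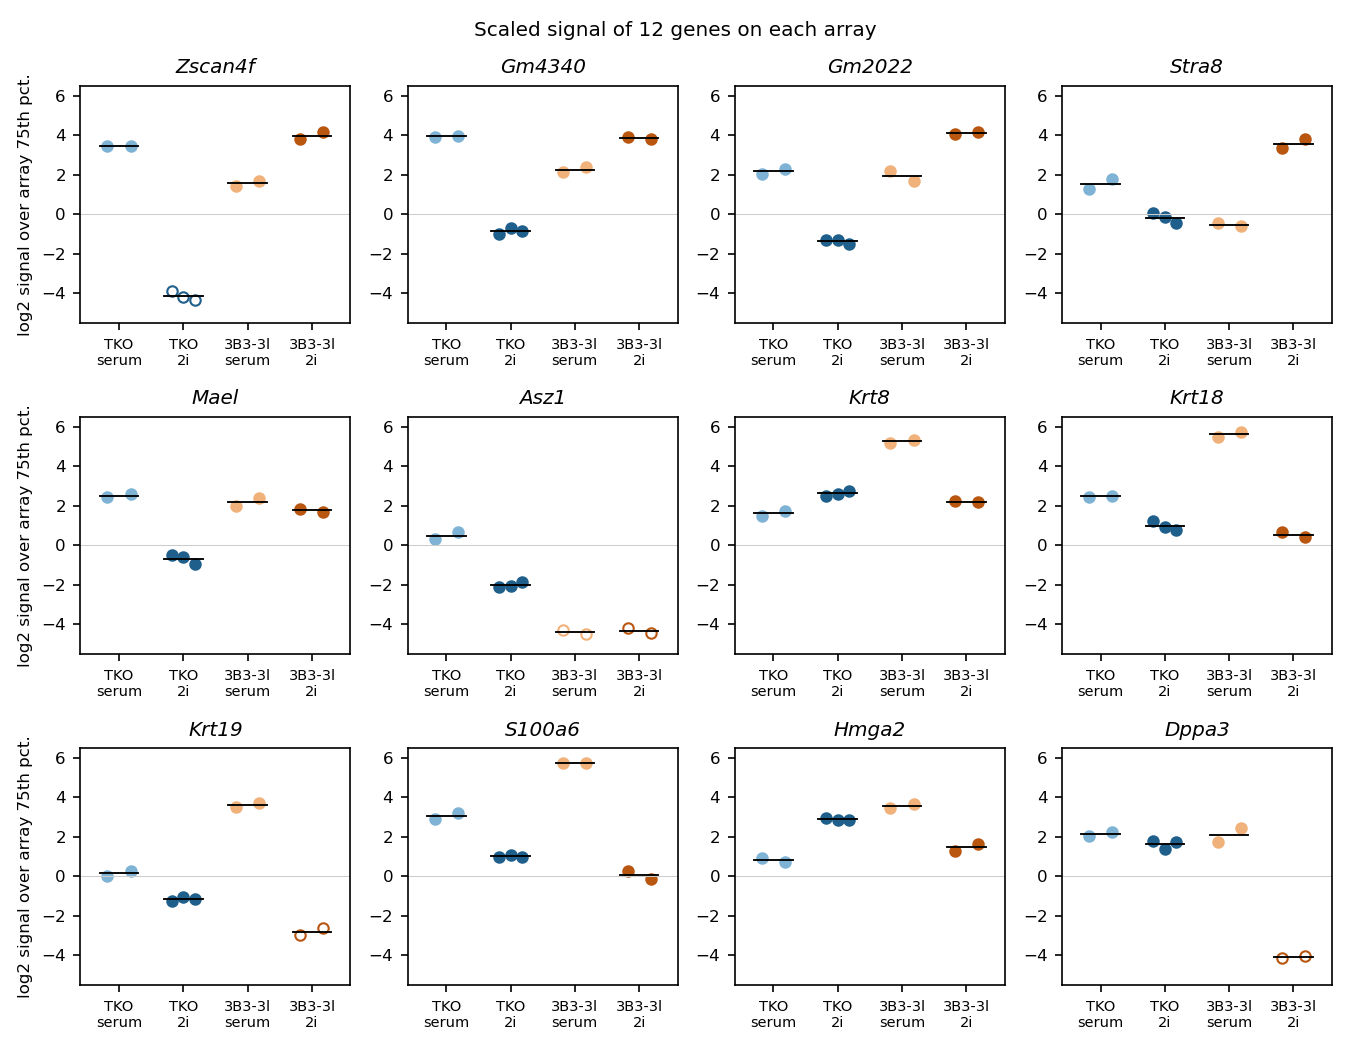
Level of 12 genes on each of the 9 arrays (vertical axis, log2 signal over the array's 75th percentile) by line and medium. Points are arrays, open where the group was not well above background on every array, and bars are group means; Zscan4f, Gm4340 and Gm2022 fall in TKO and rise in 3B3-3l, while the keratins, S100a6 and Dppa3 fall most in 3B3-3l.

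S100 proteins bind calcium and annexins bind membranes in its presence. Of 17 such genes tested, 8 had a lower response in 3B3-3l (5.62% of all genes) and none a higher one, with a median of -0.76. S100a6 lay at 2.89 and 3.23 in TKO-serum, 0.98, 1.07 and 1.000 in TKO-2i, 5.72 and 5.74 in 3B3-3l-serum and 0.25 and -0.11 in 3B3-3l-2i. It fell 4.11-fold in TKO and 50.5-fold in 3B3-3l, from a serum level that was 6.38-fold higher (difference -3.62 ± 0.22 (SE), limma adjusted p 2.7e-07). S100a1 took another path: it rose in TKO from background to -0.14, -0.32 and -0.27 and stayed at -2.52 and -2.19 and -2.04 and -2.10 in 3B3-3l, not well above background there on every array (difference -3.57 ± 0.35 (SE)). Anxa3 fell in both lines, from -0.56 and 0.08 in TKO-serum and 3.50 and 3.29 in 3B3-3l-serum to 2i levels that were not well above background on every array (difference -2.95 ± 0.33 (SE)). Anxa8 was called in 3B3-3l and not in TKO, and fell from -0.41 and -0.35 to -2.67 and -2.78, by 1 of its probes, while another probe differed by -0.76 and was not called. Anxa1, Anxa2, S100a10 and S100a13 were the other members called lower.

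Contractile genes and targets of serum response factor (SRF), a factor that serum activates, formed a list of 22 tested. Of these 13 fell in TKO (10.1% of all genes) and 15 in 3B3-3l (8.65%). A lower response in 3B3-3l was called for 6 (5.62% of all genes) and a higher one for 1, Myl9 (5.53%), and the median difference was -0.69. Tpm1, a tropomyosin, fell from 3.11 and 3.25 to 1.94, 1.93 and 2.14 in TKO and from 4.48 and 4.47 to 1.51 and 1.72 in 3B3-3l (difference -1.68 ± 0.18 (SE), limma adjusted p 3.5e-05). Of 5 Tpm1 probes 4 were called lower and 1, at -0.63, was not. Ccn1 and Ccn2, matricellular proteins induced by YAP and SRF, differed by -2.11 ± 0.30 (SE) and -1.56 ± 0.28 (SE). Both were several-fold higher in 3B3-3l-serum than in TKO-serum (4.48-fold and 5-fold).

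Mesenchymal genes can mark contaminating or differentiating cells as well as mESC programs. Of 18 tested, 7 had a lower response in 3B3-3l (5.62% of all genes) and none a higher one (5.53%), with a median of -0.73. Col1a1, a fibrillar collagen, lay at -0.46 and -1.60 in TKO-serum, -1.51, -1.65 and -1.69 in TKO-2i, 1.39 and 2.35 in 3B3-3l-serum and -2.45 and -1.86 in 3B3-3l-2i. The 3B3-3l-serum arrays were the highest, and the arrays within each serum group lay well apart (difference -3.44 ± 0.62 (SE), limma adjusted p 0.0025). Col1a2 fell from 1.004 and 0.77 to -2.61 and -2.75 in 3B3-3l and from -0.69 and -0.60 to -1.83, -1.78 and -1.997 in TKO (difference -2.34 ± 0.26 (SE)). Twist2 and Zeb2, transcription factors of mesenchyme, were well above background in 3B3-3l-serum alone, where they lay at -1.24 and -1.22 and at -1.43 and -1.68. They passed the filter through that group, so the direction of their lower calls follows largely from it. Summed over the 18 genes, the linear signal ranged from 73.2 to 77.9 in TKO-serum, 110 to 115 in TKO-2i, 110 to 123 in 3B3-3l-serum and 87.8 to 98.8 in 3B3-3l-2i, in units of the array's 75th percentile. Of the markers that define fibroblasts, Thy1 was well above background on all 9 arrays, Col1a1 on 8, Col1a2 on 7 and Pdgfrb on 4, while Dcn and Lum were so on none. Thy1 had responses of -0.73 in TKO and -0.64 in 3B3-3l and a difference of 0.09, which was not called. Pdgfrb had responses of 0.91 in TKO, which was not called, and 1.81 in 3B3-3l, from a serum group not well above background on every array, and its difference of 0.90 was not called.

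Of 18 trophoblast genes 5 had a lower response in 3B3-3l and 1 a higher one, beside 5.62% and 5.53% of all genes. The higher one was Fgfr2, a receptor for fibroblast growth factors (1.63 ± 0.48 (SE)), resting on single arrays and not called with normexp (0.86). Its probe was well above background in TKO-serum alone, so the direction of its call follows largely from the filter. Hand1, a trophoblast regulator, was well above background in 3B3-3l-serum alone (-1.65 and -1.45) and differed by -2.45 ± 0.53 (SE). The direction of its lower call likewise follows largely from the filter. The 18 genes summed to 24.4 to 24.9 in 3B3-3l-serum, above 17.96 to 19.8 in TKO-serum, and to 15.0 to 15.6 in TKO-2i and 15.0 in both 3B3-3l-2i arrays. Of the defining trophoblast markers, Gata3 and Plac1 were well above background on 4 arrays each, Hand1 on 2 and Elf5 on 1. Of 17 neural genes 6 were lower (5.62% of all genes) and 3 higher (5.53%). Nes, an intermediate filament of progenitors, stayed at 0.09 and -0.04 and 0.29, 0.02 and -0.09 in TKO and fell from 1.88 and 1.56 to -0.42 and -0.63 in 3B3-3l (difference -2.30 ± 0.39 (SE)). Nefm, a neurofilament, went from -0.03 and 0.32 to 0.98, 1.16 and 1.24 in TKO, which was not called, and was not well above background in 3B3-3l-2i (difference -2.74 ± 0.23 (SE)). Pax6, an eye and brain regulator, fell in both lines into the background and differed the other way (1.34 ± 0.34 (SE), limma adjusted p 0.02), a call resting on single arrays. The 17 genes summed to 50.8 to 79.6 in TKO-serum, 33.8 to 65.8 in TKO-2i, 61.4 to 75.2 in 3B3-3l-serum and 50.3 to 53.8 in 3B3-3l-2i. Of the defining neural markers, Sox1 and Tubb3 were well above background on all 9 arrays and Pax6 on 4, while Dcx, a marker of neuroblasts, was so on none. The part of such cells in these differences was not tested.

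**Figure D4:**
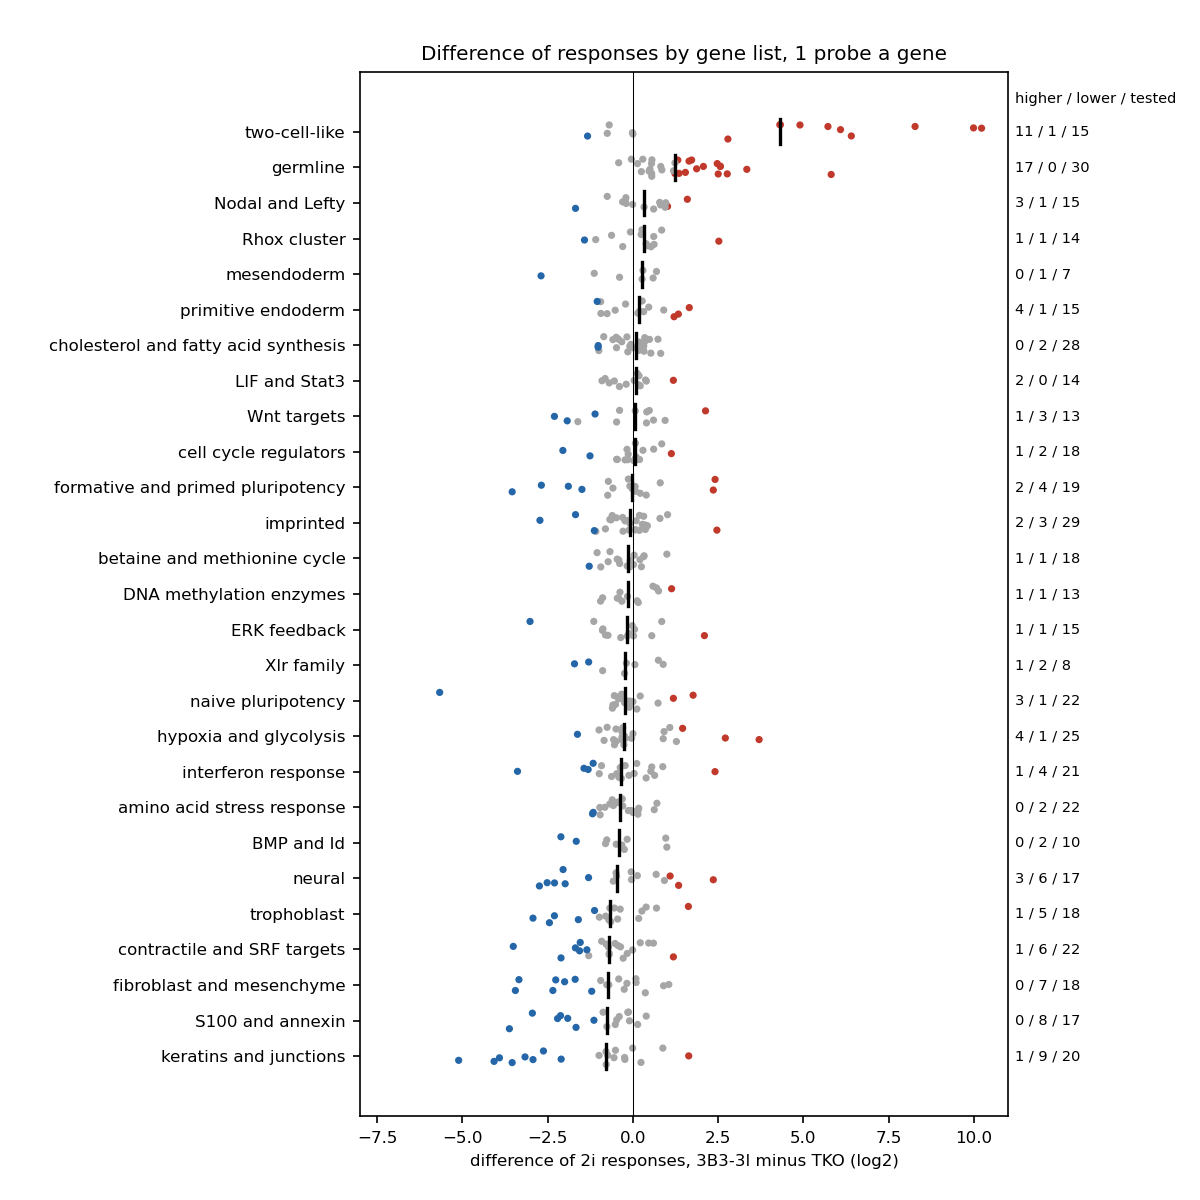
Difference of 2i responses, 3B3-3l minus TKO (horizontal axis, log2), for the tested members of 27 gene lists (vertical axis), with 1 probe a gene. Points are genes, red where that probe was called higher and blue where it was called lower, black ticks are list medians, and the numbers at the right count genes called higher and lower by any probe and genes tested; the two-cell-like list, with a median of 4.33, lies apart at the top and the keratins at the bottom.

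Of 22 naive pluripotency genes tested, 4 were called (11.1% of all genes) and 18 were not. The differences of these 18 lay between -0.60 and 0.22 with SEs from 0.15 to 0.35. Tfcp2l1, a target of LIF and of GSK3 inhibition, rose from 1.80 and 1.37 to 4.45, 4.33 and 4.30 in TKO and from 1.91 and 2.10 to 4.04 and 4.44 in 3B3-3l. The difference was -0.54 ± 0.24 (SE), with a 95% interval from -1.06 to -0.03, and was not called. Esrrb, a nuclear receptor of the naive network, went from 4.79 and 4.64 to 5.46, 5.49 and 5.42 in TKO and from 5.003 and 5.02 to 5.73 and 5.58 in 3B3-3l, and the 95% interval of its difference ran from -0.42 to 0.23. The intervals were -0.22 to 0.66 for Klf4, -0.42 to 0.66 for Klf2 and -0.70 to 0.05 for Prdm14. One Nanog probe was saturated in 3 of the groups and gives no such limit, and another, saturated in no group, differed by 0.25 ± 0.26 (SE) and was not called. Tbx3, a further naive factor, passed the adjusted p (0.04) but not the 2-fold limit, at -0.59 ± 0.17 (SE).

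Dppa3 had the largest difference of this list. The maternal factor, which shields the genome from Uhrf1 and so from maintenance methylation, lay at 2.07 and 2.24 in TKO-serum, 1.79, 1.41 and 1.76 in TKO-2i, 1.72 and 2.43 in 3B3-3l-serum and -4.13 and -4.05 in 3B3-3l-2i. The other 3 groups lay close together, and 3B3-3l-2i was in the background. The fall in 3B3-3l was at least 21.1-fold, the ratio of responses at least 14.9-fold, and the difference -5.66 ± 0.27 (SE) (limma adjusted p 2.2e-08). Uhrf1 itself differed by -0.45 ± 0.18 (SE) and was not called (limma adjusted p 0.12). Another Uhrf1 probe had the opposite sign, at 0.39 ± 0.23 (SE), and was not called. Dppa2, which with Dppa4 activates two-cell-like genes, fell in TKO from 2.19 and 2.32 to 0.77, 0.83 and 1.05 and went from 1.78 and 2.24 to 2.63 and 3.18 in 3B3-3l, which was not called (difference 2.27 ± 0.33 (SE), limma adjusted p 0.00053). Dppa4 differed by 1.03 ± 0.27 (SE) by 1 probe, a call resting on single arrays, and its other probes, at 0.74 and 0.44, were not called. Gbx2, a target of LIF signalling, differed by 1.19 ± 0.25 (SE), also resting on a single array.

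Formative genes, which prepare mESCs for differentiation, numbered 19, of which 15 fell in TKO (10.1% of all genes) and 14 in 3B3-3l (8.65%). Of these 19 genes, 6 were called for a difference (11.1% of all genes). The lower responses were those of Otx2 (-1.49), Fgf5 (-1.89), Grhl2 (-2.68) and Krt18. Grhl2, an epithelial transcription factor, went from 1.700 and 0.72 to -0.79, -0.67 and -0.76 in TKO and from 0.29 and 0.70 to -3.97 and -4.31 in 3B3-3l. A second Grhl2 probe differed by -0.61 and was not called. The higher ones were Sox3, at 0.53 and 0.23, -1.44, -1.66 and -1.93, -1.104 and -1.101 and -0.80 and -0.80 in TKO-serum, TKO-2i, 3B3-3l-serum and 3B3-3l-2i (difference 2.36 ± 0.23 (SE)), and Fgf15. Fgf15 fell into the background in both lines, from 1.95 and 2.37 in TKO and -0.33 and -0.75 in 3B3-3l, and its difference of 2.41 ± 0.29 (SE) stands beside a higher start in TKO. Lin28a (-0.01 ± 0.34 (SE)), Eomes (0.69 ± 0.32 (SE)) and Lefty2 (-0.23 ± 0.16 (SE)) were not called.

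Some genes downstream of the inhibited kinases were called. GSK3 inhibition raises Wnt targets, and of 13 tested 1 was higher and 3 lower in 3B3-3l, beside 5.53% and 5.62% of all genes. Sp5, a direct target of beta-catenin, rose from -0.37 and -0.26 to 2.99, 3.01 and 3.06 in TKO and from 1.44 and 1.84 to 2.88 and 3.21 in 3B3-3l. The 2i levels of the lines overlapped, and the difference of -1.92 ± 0.27 (SE) (limma adjusted p 0.0004) stands beside a lower start in TKO-serum. Cdx2, a caudal factor of trophectoderm and hindgut, rose in TKO from the background to -2.15, -1.95 and -1.79 and was already at -0.44 and -0.56 in 3B3-3l-serum (0.06 and -0.17 in 2i), a difference of -2.30 ± 0.25 (SE). Sfrp1, a Wnt antagonist, rose from -0.21 and 0.16 to 2.45, 2.51 and 2.35 and from 0.98 and 0.78 to 2.19 and 2.28 (difference -1.11 ± 0.28 (SE), limma adjusted p 0.018, resting on single arrays; -0.70 and not called with normexp). Nkd1, a feedback inhibitor of Wnt, fell in TKO and rose in 3B3-3l by 1 probe (difference 2.13 ± 0.25 (SE)), with TKO-2i and 3B3-3l-serum not well above background on any array. By another probe its responses were -1.60 in TKO and -0.93 in 3B3-3l, both negative, and the difference of 0.67 was not called.

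Of 15 ERK feedback genes, 2 were called, beside 11.1% of all genes. Dusp4, a phosphatase of ERK, fell from 2.41 and 2.54 to -2.07 and -3.82 in 3B3-3l and from -0.53 and -0.61 to -2.35, -3.21 and -3.38 in TKO, with both 2i groups in the background (difference -3.01 ± 0.61 (SE), limma adjusted p 0.0048). Spry4, an inhibitor of the pathway, fell from 1.40 and 0.18 to -2.75, -2.56 and -2.56 in TKO and from 0.19 and 0.45 to -1.67 and -0.31 in 3B3-3l. Its arrays scattered widely within the groups, and the difference of 2.10 ± 0.58 (SE) (limma adjusted p 0.03) rested on single arrays. Of 10 BMP and Id genes tested, 2 were lower and none higher, beside 5.62% and 5.53% of all genes. The lower ones were Id2 and Id4, inhibitors of differentiation under BMP control. Id4 rose in TKO from -0.68 and -0.62 to 0.85, 1.07 and 1.23 and stayed at -0.28 and -0.24 and -0.06 and -0.39 in 3B3-3l (difference -1.66 ± 0.20 (SE)), and Id2 fell in both lines (difference -2.11 ± 0.33 (SE)). In the Nodal list Smad3 was lower (-1.68 ± 0.27 (SE)) and Skil, Cfc1 and Acvr1b were higher, of 15 tested (5.62% and 5.53% of all genes), with Acvr1b resting on single arrays. By the probes called, Skil and Cfc1 were well above background in TKO-serum alone. Another Skil probe, not in the background of any group, differed by 0.81 and was not called. With normexp Skil (0.74), Cfc1 (0.39) and Acvr1b (0.74) were not called.

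Hypoxia and glycolysis genes held 4 higher and 1 lower of 25, beside 5.53% and 5.62% of all genes. Ndufa4l2, a mitochondrial protein induced by low oxygen, lay at 0.35 and 0.20 in TKO-serum, -1.93, -1.89 and -1.71 in TKO-2i, -1.83 and -1.46 in 3B3-3l-serum and -0.15 and 0.01 in 3B3-3l-2i. It fell in TKO and rose in 3B3-3l, so the medium with the higher level was not the same in both lines (difference 3.70 ± 0.33 (SE), limma adjusted p 1e-05). Egln3, an oxygen-sensing hydroxylase, and Bnip3, a mitophagy receptor, fell in TKO into the background from -0.63 and -0.14 and from -0.29 and -0.19. In 3B3-3l-serum they lay at -1.53 and -1.77 and at -0.93 and -0.79, below TKO-serum by a call for Egln3 and not for Bnip3, and changed in 2i by -0.55 and -0.19, neither of them called. These are the values of 1 probe a gene. For that Egln3 probe 3B3-3l-2i was also in the background, so its change in 3B3-3l is a minimum fall. Another Egln3 probe, with only TKO-2i in the background, changed by -0.50 in 3B3-3l, and its difference of 2.71 was called. For Bnip3 the probe given was the only one of 3 that reached the background. Another, at 2.48, was called, and the third, at 1.28, was not. Pfkfb3, a regulator of glycolysis, fell from 1.26 and 0.95 to -0.76 and -0.52 in 3B3-3l and lay at 0.21 and 0.16 and 0.16, 0.09 and -0.06 in TKO, which was not called (difference -1.62 ± 0.20 (SE)).

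Of 29 imprinted genes, 2 were higher (Dlk1, 2.46 ± 0.45 (SE), and Nap1l5, 2.05 ± 0.27 (SE)) and 3 lower (Igf2, -2.72 ± 0.70 (SE), Nnat, -1.68 ± 0.47 (SE), and Airn), beside 5.53% and 5.62% of all genes. Each of the 4 named with a value had at least 1 group in the background, and other probes of Nap1l5 (1.02) and Nnat (0.14) were not called. The calls of Igf2 and Nnat rested on single arrays, and with normexp Nap1l5 (0.83) and Igf2 (-1.29) were not called. Of 14 Rhox genes, a homeobox cluster of the X chromosome, Rhox5 was lower and Rhox10 higher, beside 5.62% and 5.53% of all genes. Rhox5 lay at 4.65 and 4.83 and 4.85, 4.87 and 4.87 in TKO, which was not called, and fell in 3B3-3l from 5.66 and 5.52 to 4.29 and 4.30 (difference -1.42 ± 0.16 (SE), limma adjusted p 7.1e-05). Rhox10 fell in TKO from 0.56 and 0.90 to -1.31, -1.27 and -1.41 and went from -0.74 and -0.99 to -0.33 and -0.48 in 3B3-3l (difference 2.52 ± 0.22 (SE)). Of 8 Xlr genes, another X-linked family with near-identical copies, Xlr and Xlr4a were lower and Xlr5c higher, beside the same shares. Xlr was well above background in TKO-2i alone (-2.001, -1.79 and -1.58, difference -3.20 ± 0.19 (SE)). Xlr4a and Xlr5c were in the background in both 3B3-3l groups, and the call of Xlr5c rested on single arrays. Another probe of each, at -0.95 for Xlr4a and 0.75 for Xlr5c, was not called. Neither Xlr4a (-0.47) nor Xlr5c (0.45) was called with normexp. Called genes were spread over the chromosomes, with 4.32% (chromosome 16) to 6.72% (chromosome 9) of the tested genes of an assembled chromosome other than Y called higher and 4.01% (chromosome 12) to 7.89% (chromosome 14) called lower.

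Cholesterol and fatty acid synthesis had 2 lower of 28, beside 5.62% of all genes (Scd1, -1.02 ± 0.22 (SE), and Fasn, -1.02 ± 0.25 (SE)). The amino acid stress list had 2 lower of 22 (Atf3, -1.18 ± 0.28 (SE), and Ddit3, -1.16 ± 0.35 (SE)), and the betaine and methionine cycle 1 in each direction of 18, both beside 5.53% higher and 5.62% lower of all genes. In the latter list Mtrr, methionine synthase reductase, was lower (-1.28 ± 0.15 (SE)). Aldh7a1, an aldehyde dehydrogenase, was higher by 1 probe (2.02 ± 0.50 (SE)), resting on single arrays and not called with normexp (1.39), and another probe, at -0.17, was not called. The called probe was well above background in TKO-serum alone, so the direction of its call follows largely from the filter. The calls of Scd1, Fasn, Atf3 and Ddit3 rested on single arrays, and with normexp Scd1 (-0.91), Fasn (-0.87) and Atf3 (-0.96) were not called. Dmgdh, which rose in both lines from background to 2.64, 2.40 and 2.46 in TKO and 3.06 and 2.98 in 3B3-3l, was not called at -1.05 ± 1.64 (SE) (limma adjusted p 0.75). That error takes in the spread of the J1-serum arrays, which ran from -4.71 to 0.33 for this gene. Fitted on the 9 arrays alone, Dmgdh was called at -1.05 (limma adjusted p 0.014), and with slide as a block at -1.07 (limma adjusted p 0.0035). Interferon-response genes held 1 higher and 4 lower of 21, beside 5.53% and 5.62% of all genes. B2m, the light chain of MHC class I, went from 2.59 and 2.98 to 3.53, 3.48 and 3.54 in TKO and from 2.91 and 3.31 to 2.29 and 2.54 in 3B3-3l, neither of them called, for a difference of -1.43 ± 0.21 (SE). Isg20, an RNA exonuclease, was well above background in TKO-2i alone by the probe with the larger difference (-4.08 ± 0.33 (SE)), while another probe, with only 3B3-3l-2i in the background, differed by -3.38 and was also called. Ifi27 rose in both lines, in 3B3-3l from the background (difference 2.41 ± 0.26 (SE)). Of 18 cell cycle genes, Mycn (-1.26 ± 0.18 (SE)) and Cdkn2b (-2.05 ± 0.32 (SE)) were lower and Ccnd2 (1.13 ± 0.19 (SE), resting on single arrays) higher, beside 5.62% and 5.53% of all genes. Of 14 LIF and Stat3 genes, 2 were higher and none lower, beside 5.53% and 5.62% of all genes. They were Gbx2, given above, and Lifr, the LIF receptor. Lifr was called by 1 probe (1.51 ± 0.36 (SE)), and this call rested on single arrays. That probe was well above background on every array in TKO-serum alone. The other Lifr probes, at 0.20 and -0.69, were not called. Primitive endoderm genes held 4 higher (Cubn, Amn, Hnf4a and Sox17) and 1 lower of 15, beside 5.53% and 5.62% of all genes, and another Sox17 probe, at 0.47, was not called. These 4 were not well above background in 1 or more groups, and the calls of Hnf4a and Sox17 rested on single arrays. With normexp Cubn (0.66), Amn (0.96), Hnf4a (0.73) and Sox17 (0.48) were not called. Of the defining endoderm markers, Gata4 was well above background on 7 arrays, Gata6 on 5 and Sox17 on 4 (by the Sox17 probe not called), while Afp and Ttr were so on none. Hoxc13, a homeobox gene, rose from -1.49 and -1.48 to 0.55, 0.62 and 0.61 in TKO and from -3.12 and -3.58 to -0.09 and -0.10 in 3B3-3l, where the serum arrays were not well above background. The ratio of responses was at least 1.06-fold (measured difference 1.18 ± 0.21 (SE), limma adjusted p 0.0022, resting on a single array; 0.49 and not called with normexp).

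The most negative differences among genes measured on all 9 arrays included some of no list. Phldb2, a protein of the cell cortex, lay at -1.43 and -1.47 in TKO-serum, -0.59, -0.90 and -0.66 in TKO-2i, 2.48 and 2.49 in 3B3-3l-serum and -1.37 and -1.23 in 3B3-3l-2i. It was 15.3-fold higher in 3B3-3l than in TKO in serum, and below it by less than the 2-fold limit in 2i, for a difference of -4.52 ± 0.18 (SE) (limma adjusted p 4.1e-09). Hmga2, a chromatin protein of early differentiation, rose in TKO from 0.91 and 0.72 to 2.98, 2.87 and 2.87 and fell in 3B3-3l from 3.47 and 3.69 to 1.31 and 1.66, for a difference of -4.19 ± 0.19 (SE) (limma adjusted p 1.4e-08). No 2 groups overlapped. Mvb12b (-3.36), Susd4 (-3.28) and Plbd1 (-3.20) completed the 10, with the keratins, S100a6 and Perp.

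Among genes with a group in the background, Mal, a membrane proteolipid, rose in TKO from background to 0.21, -0.17 and 0.14 and lay at -1.86 and -1.79 and -3.53 and -3.77 in 3B3-3l, where neither medium passed on every array (difference -6.86 ± 0.21 (SE), limma adjusted p 2.3e-10). Sprr2a2, a cornified envelope gene with close copies, was at 0.90 and 0.87 in 3B3-3l-serum and -1.15, -1.28 and -1.12 in TKO-2i and in the background of the other groups. The responses were opposite, and their ratio was at least 28.3-fold (difference -7.02 ± 0.44 (SE)). A second Sprr2a2 probe, saturated in all 4 groups, differed by -0.68 and was not called. Tgfb2, a growth factor, was well above background in 3B3-3l-serum alone (0.86 and 1.02), against -2.87, -3.15 and -2.98 in TKO-2i (difference -5.39 ± 0.40 (SE)).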

How the data were processed

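RNA of the 16 samples was hybridised by the authors to one-colour Agilent mouse arrays, and the deposited scanner files (Agilent Feature Extraction 11.5.1.1 per the labels) hold for each of 62976 spots a background-subtracted, detrended intensity with flags for saturation, outliers and signal well above background. A deposited table of the authors' normalised log2 values was used as an alternative. Each intensity was put on the log2 scale and the array's 75th percentile over 59305 non-control spots was subtracted. Outlier spots were dropped and spots averaged to 55681 probes. All 16 arrays were fitted with 6 group means in limma 3.58.1 (R 4.3.3), with Benjamini-Hochberg adjustment over the 25965 probes tested, of which 711 lacked a value on some array. Named genes were the 10 largest differences in each direction among called probes measured and unsaturated on all 9 arrays, the 5 largest in each direction with a group in the background, up to 4 called members of each list, and, called or not, the methyltransferases and genes that the study names. Genes named beyond these were chosen after their values were seen. The members and lists were chosen with earlier results of these data known. The steps were tested on simulated data. Alternatives covered scaling, background correction, filters, slide, replicate number, fold limit and leaving out each array.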

Additional observations from a re-analysis of the deposited data

Results flagged for a closer look

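The 2i responses of the lines differed by the limma interaction test for 744 genes higher and 756 lower in 3B3-3l. In 49 of the former and 21 of the latter both lines were called on their own, in opposite directions.

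Among the genes named here, these opposite responses were positive for Zscan4b (10.23), Zscan4f (9.99), Zscan4c (8.997 and 4.90 by 2 of its 3 probes), Gm13043 (8.97), Gm20767 (8.83), Zscan4a (8.50 and 4.33), AF067061 (6.89), Gm4312 (6.80), Gm4340 (6.41), Stra8 (5.82), Gm2022 (5.72), Pramel20 (4.65), Gm4303 (4.01), Ndufa4l2 (3.70) and Nkd1 (2.13 by 1 probe), where TKO fell and 3B3-3l rose. The other Nkd1 probe had negative responses in both lines. They were negative for Plbd1 (-3.20), Krt8 (-4.07), Isg20 (-4.08), Hmga2 (-4.19), Tgfb2 (-5.39), Mal (-6.86) and Sprr2a2 (-7.02), where TKO was called up and 3B3-3l down. For Mal and for this probe of Isg20 both 3B3-3l groups were not well above background on any array, and for Tgfb2 both TKO groups, so the direction in that line was not measured and an opposite response is not shown for these 3 genes. All are log2 differences of responses.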

How the results depend on the processing

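Against 744 higher and 756 lower genes, the counts were 290 and 412 with probes well above background on all 9 arrays, 1140 and 1392 with no fold limit, and 1308 lower genes with a 1.5-fold limit, where 45.8% of the calls were higher. With normexp background correction they were 496 and 594. Leaving out each array gave 668 to 779 higher and 683 to 786 lower genes. Scaling to the median in place of the 75th percentile moved the median probe from -0.07 to 0.03 and the split to 855 higher and 592 lower genes, or from 49.6% to 59.1% higher. With the replicate number as a block there were 712 higher and 721 lower genes, and 7 calls of named probes ended. Same-numbered samples had deviations correlated at 0.07 and 0.02 in TKO, 0.31 in 3B3-3l and below 0 between the lines, so the numbers were not read as pairs. The two-cell-like list held 11 higher genes except in the authors' table (6) and with the filter on all 9 arrays (4), which both test fewer probes, and without a filter (13). Higher germline genes numbered 10 with that filter, 14 with normexp and 16 to 18 otherwise, against 17, and lower keratin and junction genes 7 with that filter and 9 to 11 otherwise, against 9.

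Of 106 named probes called, 78 kept their call in every alternative that gave a value, 28 lost it in at least 1, and none was reversed. Of 15 not called, 5 changed sign. With normexp 20 of the 106 calls ended, those of Skil (0.74), Nap1l5 (0.83), Aldh7a1 (1.39), Cubn (0.66), Fgfr2 (0.86), Cfc1 (0.39), Amn (0.96), Hnf4a (0.73), Hoxc13 (0.49), Dnmt3l (0.999), Sox17 (0.48), Acvr1b (0.74), Xlr5c (0.45), Fasn (-0.87), Scd1 (-0.91), Sfrp1 (-0.70), Atf3 (-0.96), Xlr4a (-0.47), Dnmt3b (-0.94 by 1 probe) and Igf2 (-1.29). With the 9 arrays alone there were 641 higher and 695 lower genes, and 11 calls ended, those of Spry4 (2.0989), Fgfr2 (1.63), Lifr (1.51), Pax6 (1.34), Hnf4a (1.21), Sox17 (1.05), Dppa4 (1.03), Acvr1b (1.02), Ddit3 (-1.16), Atf3 (-1.18) and Nnat (-1.68). With slide as a block those of Fasn (-0.98) and Ddit3 (-1.15) ended. Dmgdh, not called, was called in both (-1.05 and -1.07). Lin28a was at 0.0505 with quantile normalization, 0.0902 with median scaling and 0.0817 in the authors' table. Esrrb was at 0.0748, 0.00615 and 0.0702 in the same order. Nanog was at 0.0949 with quantile normalization and 0.0895 in the authors' table. Leaving out each array gave -0.208 to 0.188 for Lin28a, -0.179 to 0.414 for Klf2 and -0.0157 to 0.448 for Klf4. The cause of these moves was not tested.

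Without 3B3-3l-2i replicate 1, calls ended for Fgfr2 (1.53), Lifr (1.25), Pax6 (1.08), Ccnd2 (0.999), Sox17 (0.94), Dppa4 (0.87), Acvr1b (0.92), Xlr5c (0.90), Scd1 (-0.80), Sfrp1 (-1.06), Ddit3 (-0.70) and Nnat (-1.35). Without 3B3-3l-2i replicate 2, calls ended for Spry4 (1.42), Fgfr2 (1.73), Hnf4a (1.06), Acvr1b (1.12), Xlr5c (1.103), Fasn (-0.93) and Igf2 (-2.63). Without 3B3-3l-serum replicate 1, calls ended for Spry4 (1.97), Aldh7a1 (2.01), Lifr (1.40), Hnf4a (1.24), Xlr5c (1.103), Fasn (-0.95), Scd1 (-0.90), Sfrp1 (-1.01), Ddit3 (-1.002) and Nnat (-1.82). Without 3B3-3l-serum replicate 2, calls ended for Spry4 (2.23), Fgfr2 (1.21), Pax6 (1.15), Hnf4a (1.18), Hoxc13 (0.95), Sox17 (0.76), Dppa4 (0.78), Acvr1b (0.82), Xlr5c (0.90), Ddit3 (-1.32), Atf3 (-1.003), Nnat (-1.54) and Igf2 (-2.46). Without TKO-2i replicate 1, calls ended for Spry4 (2.04), Dppa4 (0.91), Acvr1b (0.90), Xlr5c (1.004), Fasn (-0.95), Scd1 (-0.99), Ddit3 (-1.09) and Atf3 (-0.96). Without TKO-2i replicate 2, calls ended for Spry4 (2.13), Fgfr2 (1.46), Hnf4a (1.12), Sox17 (0.99), Acvr1b (0.98), Xlr5c (0.97) and Ddit3 (-1.24). Without TKO-2i replicate 3, calls ended for Fgfr2 (1.46), Hnf4a (1.04), Xlr5c (1.04) and Ddit3 (-1.15). Without TKO-serum replicate 1, calls ended for Spry4 (1.49), Aldh7a1 (1.91), Fgfr2 (1.80), Lifr (1.23), Gbx2 (0.89), Acvr1b (0.90), Xlr5c (1.03), Scd1 (-0.97), Sfrp1 (-0.92), Ddit3 (-0.86) and Igf2 (-2.48). Without TKO-serum replicate 2, calls ended for Fgfr2 (1.46), Pax6 (1.03), Hnf4a (1.09), Ccnd2 (0.95), Dppa4 (0.76), Xlr5c (0.97), Fasn (-0.82) and Nnat (-1.39). Signal over background limits all differences with a group near the floor of the arrays.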

Other observations

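The Pramel genes, relatives of a human tumour antigen that are numerous and similar in the mouse, were grouped by name after their values were seen. Of 13 tested, 5 had a higher response in 3B3-3l (Pramel19, Pramel20, Pramel31, Pramel39 and Pramel50) and 1, Pramel7, a lower one, beside 5.53% and 5.62% of all genes. Pramel20 lay at 1.47 and 1.65 in TKO-serum, -0.81, -1.41 and -1.87 in TKO-2i, -1.49 and -1.502 in 3B3-3l-serum and 0.37 and 0.11 in 3B3-3l-2i. Shared sequence between these genes means that they are not separate measurements.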
